A study of Mus musculus with 4 samples.

Results

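The genes described here act in the repair of DNA breaks and crosslinks, and were given as a list of 37 symbols with roles in homologous recombination, the Fanconi anemia pathway, break resection, damage signalling, mismatch repair or end joining. Of these, 36 had a row among the 23450 genes listed for each library, and Fanca was not analysed here. Transcript abundance was measured by RNA sequencing of sorted mouse bone marrow cells, 2000 cells per library, in 2 libraries of long-term hematopoietic stem cells (LT-HSC) and 2 of short-term hematopoietic stem cells (ST-HSC). Both groups were gated as CD48- and CD150+. LT-HSC were in addition CD34- and high for the tetraspanin CD9, and ST-HSC were low for CD9, with no CD34 gate in the labels. The labels name no strain, age or treatment of the mice and do not say whether a group's libraries derive from different animals, so that p-values here cover no more than library-to-library spread, possibly technical.

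Homologous recombination repairs breaks of both DNA strands by copying an intact sister chromatid and is therefore used mostly in S and G2 phase. The MRE11-RAD50-NBN complex and the nuclease EXO1 trim the broken ends, BRCA1 with BARD1 and BRCA2 with PALB2 prepare the resulting overhang for strand exchange, and the RAD54 proteins, XRCC2 and XRCC3 assist in it. The Fanconi proteins recognise crosslinks between the DNA strands, mark FANCD2 and FANCI with ubiquitin and pass the lesion on to recombination. Their loss causes bone marrow failure in people. End joining ligates broken ends without a template in any phase of the cycle, using the Ku proteins (Xrcc6 and Xrcc5), the kinase encoded by Prkdc and the ligase complex of Xrcc4 and Lig4.

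Between 13078288 and 16157206 reads per library were recovered from the deposited values. Levels are in CPM, reads scaled to a common library total, and a gene at the lowest value of a library held at most 1 read and is given as 0 CPM. A floor of 3 reads equals 0.186 to 0.229 CPM. LT-HSC 1 had 14548 genes above the lowest value and the other libraries 13275 to 13341. A gene was tested if 2 or more libraries reached 1 CPM, which 12608 genes did. Over these, log2(CPM + 1) of the LT-HSC pair had a Pearson correlation of 0.739 and that of the ST-HSC pair 0.799, while pairs from different groups had 0.717 to 0.766. Genes are not independent replicates. The HSC markers examined were detected in all 4 libraries. Cd48, whose protein both gates exclude, had 0.229 and 0.186 CPM in the LT-HSC libraries, and 16.5 and 38.8 CPM in ST-HSC.

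The comparison asked how transcripts of the repair genes differ between CD9-high LT-HSC and CD9-low ST-HSC, and whether recombination and Fanconi genes differ from end joining genes in this. No repair gene passed the test across all genes. Among 34 repair genes tested with limma, 0 had an adjusted p under 0.05, as for all genes (0% of 12608), and the smallest adjusted p was 0.718. By limma-voom on the recovered reads the count was also 0. At an unadjusted p under 0.05 by limma, 5 of the 34 were lower in LT-HSC and 0 higher, where 3.59% of all tested genes were lower and 2.92% higher. By limma-voom 5 also passed the unadjusted threshold, of which 3 were shared (Brca2, Chek1 and Mre11a), while Exo1 and Fancb did not pass and Chek2 and Fanci did. Of the 36 listed genes, 14 lay lower in both LT-HSC libraries than in both ST-HSC libraries and 3 lay higher, whereas 14.5% and 13.8% of all genes above the lowest value in any library did so. Of the 34 tested genes these are the same 14 and 3, against 17.5% and 16.1% of all tested genes. Fancb and Exo1 were tested only through their ST-HSC values, as they were under 1 CPM in both LT-HSC libraries. The values of single genes below are therefore descriptions and not calls. Leaving out a library changed which repair genes passed the unadjusted threshold. Without either ST-HSC library, Fancb and Exo1 missed the filter and were not tested. Without ST-HSC 1, Fance stood higher in LT-HSC, with a log2 fold change of 3.74.

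The recombination, Fanconi and resection genes were set beside the end joining genes, without a test of the difference between the lists. Of 25 listed genes of the first kind, 11 were lower in both LT-HSC libraries and 2 higher, and of 6 end joining genes 0 were lower and 1 higher. Over all genes above the lowest value in any library, 14.5% were lower in this way and 13.8% higher. The counts for the 6 end joining genes are close to what these shares give. The median log2 fold change, LT-HSC minus ST-HSC on the log2(CPM + 1) scale, was -0.82 over the 24 tested genes of the first kind, -0.25 over 5 tested end joining genes and -0.01 over all tested genes. The 24 tested genes, like the 11 lower ones, include Fancb and Exo1, which were tested only through their ST-HSC values. Summed CPM of the 25 recombination, Fanconi and resection genes was 891 and 839 for the LT-HSC libraries and 1341 and 1540 for the ST-HSC libraries, so the groups did not overlap. Summed CPM of the 6 end joining genes was 478 and 366 against 406 and 555, and the groups overlapped. The difference between the medians was -0.57, and it moved to -0.13 without LT-HSC 1, -0.37 without ST-HSC 2 and -1.04 without ST-HSC 1. Taken within each library, the difference between the list medians had a pooled SD of 0.65 between libraries of a group. The difference between the groups was thus smaller than this spread. The end joining median moved to -0.42 without LT-HSC 1, -0.09 without LT-HSC 2 and -0.01 without ST-HSC 1. No p is given for these medians, because genes are not replicates of a condition.

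**Figure D1:**
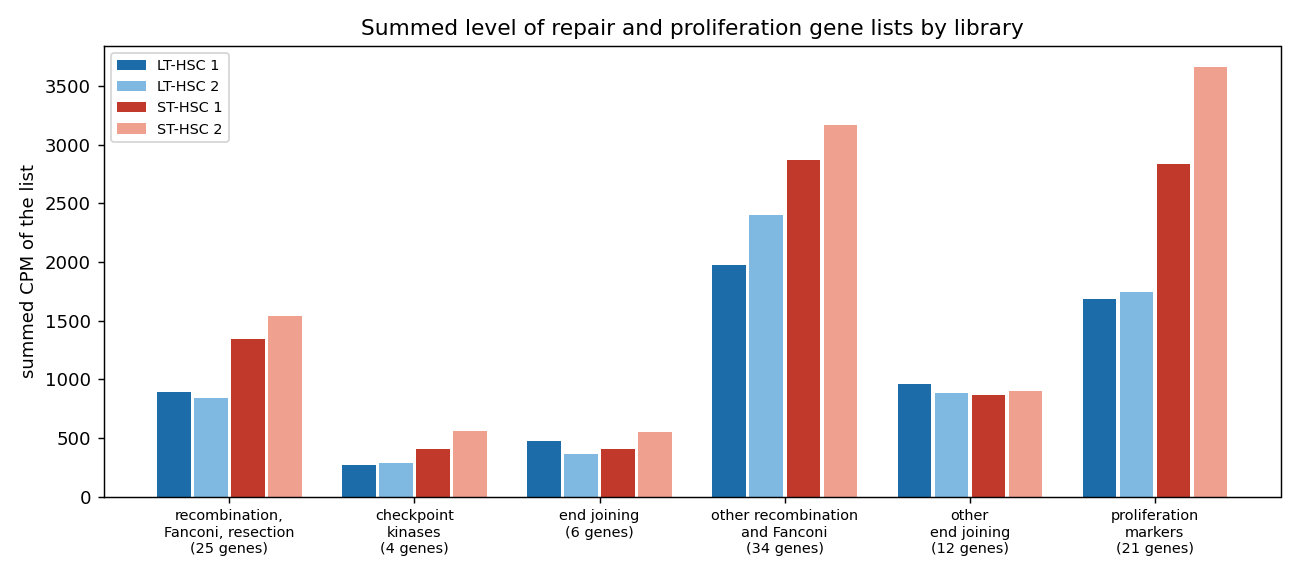
Summed CPM (vertical axis) of 6 gene lists, with 1 bar for each library. The 25 recombination, Fanconi and resection genes reached 891 and 839 CPM in LT-HSC against 1341 and 1540 CPM in ST-HSC, while the 6 end joining genes overlapped between the groups.

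Proliferation genes were lower in LT-HSC beside this difference. Of 21 proliferation markers, 15 were lower in both LT-HSC libraries and 0 higher, with a median log2 fold change of -1.51, and none was at 0 in every library. Over all tested genes, 17.5% were lower in this way and 16.1% higher. Aurkb is among the 15 and was tested only through its ST-HSC values, being at 0.382 and 0.309 CPM in LT-HSC. Summed CPM of the proliferation markers was 1680 and 1745 in LT-HSC and 2838 and 3658 in ST-HSC. The 7 markers of HSCs stood the other way, with 5 higher in both LT-HSC libraries and 0 lower, and sums of 2292 and 2288 CPM against 1495 and 1661 CPM in ST-HSC. Among them Procr had 347 and 236 CPM against 136 and 122 CPM, and Mecom had 691 and 844 CPM against 365 and 480 CPM, each with a limma adjusted p of 0.718. Of the 3 markers of multipotent progenitors (Cd48, Cd34 and Flt3) all 3 were lower in both LT-HSC libraries, with sums of 141 and 223 CPM against 380 and 538 CPM. Cd34 made up most of these sums, at 134 and 201 CPM against 324 and 430 CPM. The gates used CD34 and CD9, so Cd34, and Cd9 among the higher HSC markers, are not independent of the sort. Cd48 was tested only through its ST-HSC values. The 4 megakaryocyte markers summed to 75.2 and 79.5 CPM in LT-HSC and 193 to 240 CPM in ST-HSC, and Itga2b made up most of the difference, at 2.52 and 5.07 CPM against 152 and 105 CPM. The 3 without Itga2b summed to 72.6 and 74.4 CPM in LT-HSC against 88.5 and 87.6 CPM in ST-HSC, a comparison added after the values were seen. Sums overlapped between the groups for 6 erythroid markers (206 to 289 CPM in LT-HSC and 278 to 319 CPM in ST-HSC), for 5 granulocyte-monocyte markers (226 to 342 and 254 to 280 CPM), with Ctsg at 0 in every library, for 4 B cell markers (130 to 219 and 93.6 to 145 CPM), with Pax5 at 0, and for 4 T and NK cell markers (23.5 to 98.7 and 64.4 to 102 CPM), with Cd3e at 0. Within the erythroid list Klf1 had 0.382 and 0.186 CPM in LT-HSC against 27.5 and 9.50 CPM in ST-HSC. Within the granulocyte-monocyte list Mpo had 0 and 0.124 CPM in LT-HSC against 10.1 and 21.4 CPM in ST-HSC. Both were tested only through their ST-HSC values. Of 5 tested erythroid markers 2 were lower in both LT-HSC libraries and 1 higher. Of 4 tested granulocyte-monocyte markers 1 was lower and 0 higher. The part of these cell types and of proliferation in the repair gene values was not tested. In bulk libraries, fewer cells that express a gene and less RNA per cell cannot be told apart.

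Promoter sequences are shown for the 4 recombination or Fanconi genes with the largest fold change whose groups did not overlap and for the 2 end joining genes with the highest mean CPM, as examples from the compared lists. The 250 bases before the transcription start, from RefSeq on GRCm38.p6, lie at chrX:164980342-164980591 (plus strand) for Fancb, chr9:14784404-14784653 (plus) for Mre11a, chr7:80534999-80535248 (minus) for Blm, chr5:150522371-150522620 (plus) for Brca2, chr15:82016119-82016368 (plus) for Xrcc6 and chr1:180568641-180568890 (plus) for Parp1. Exo1, whose fitted value also ranks among the largest, has no promoter shown. Fancb and Exo1 were tested only through their ST-HSC values, so their rank by fold change rests on those values. Capitals mark E2F words (TTCCCGC, then TTCGCGC, also TTGCCGC and lastly TTGGCGC) and CCAAT words on either strand.
Fancb: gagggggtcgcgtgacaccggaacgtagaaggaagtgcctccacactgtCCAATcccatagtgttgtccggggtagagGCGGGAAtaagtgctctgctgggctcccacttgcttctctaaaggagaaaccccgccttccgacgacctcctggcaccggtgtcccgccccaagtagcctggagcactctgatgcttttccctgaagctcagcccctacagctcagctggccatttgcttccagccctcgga
Mre11a: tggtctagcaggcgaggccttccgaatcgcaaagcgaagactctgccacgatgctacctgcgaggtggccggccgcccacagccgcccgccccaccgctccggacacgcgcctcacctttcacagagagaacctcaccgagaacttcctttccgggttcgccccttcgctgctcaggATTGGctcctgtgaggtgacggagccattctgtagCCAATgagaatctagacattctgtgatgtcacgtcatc
Blm: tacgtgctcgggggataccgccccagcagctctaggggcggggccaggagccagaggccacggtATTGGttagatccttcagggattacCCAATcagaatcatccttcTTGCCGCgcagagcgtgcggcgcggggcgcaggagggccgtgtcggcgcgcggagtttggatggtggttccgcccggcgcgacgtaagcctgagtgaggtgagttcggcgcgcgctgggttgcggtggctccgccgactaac
Brca2: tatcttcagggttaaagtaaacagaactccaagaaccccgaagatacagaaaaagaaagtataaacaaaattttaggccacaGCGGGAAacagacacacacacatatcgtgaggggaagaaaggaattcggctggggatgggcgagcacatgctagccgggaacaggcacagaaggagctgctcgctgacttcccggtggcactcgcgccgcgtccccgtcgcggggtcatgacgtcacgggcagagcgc
Xrcc6: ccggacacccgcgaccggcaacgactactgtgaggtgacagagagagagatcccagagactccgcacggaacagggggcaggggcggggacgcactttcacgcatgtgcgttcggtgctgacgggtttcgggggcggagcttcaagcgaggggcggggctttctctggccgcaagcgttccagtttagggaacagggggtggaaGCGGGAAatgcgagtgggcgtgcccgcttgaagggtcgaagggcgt
Parp1: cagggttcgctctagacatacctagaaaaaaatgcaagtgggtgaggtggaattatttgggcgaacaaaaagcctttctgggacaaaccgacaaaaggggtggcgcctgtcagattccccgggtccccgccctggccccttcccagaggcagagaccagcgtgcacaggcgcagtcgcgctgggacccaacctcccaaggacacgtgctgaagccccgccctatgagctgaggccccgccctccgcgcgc

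E2F factors drive genes of the G1 to S transition, and the CCAAT word is bound by NF-Y. An E2F word was found within these 250 bases for Fancb, Blm, Brca2 and Xrcc6, and a CCAAT word for Fancb, Mre11a and Blm. Over the whole 300-base windows, 250 before to 50 after the start, 30 of the 37 repair genes had an entry. An E2F word was present in 63.3% of these (19 of 30) and in 10.9% of all 27025 genes in the table. CCAAT was present in 63.3% (19 of 30) and in 41.1% of all genes. The CHR word TTTGAA of mitotic genes was present in 1 of the 30 (3.33%) and in 20.2% of all genes. E2F and CCAAT words shared bases in 1 gene, Fancf. The E2F word occurred in 12 of 20 recombination, Fanconi and resection genes (60.0%) and in 3 of 5 end joining genes (60.0%). It occurred in 8 of 11 repair genes with both LT-HSC libraries below both ST-HSC libraries (72.7%) and in 11 of 18 others with values (61.1%). These are matches of letters in a window and not sites of binding.

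The 5 resection genes had a median log2 fold change of -1.76, and 4 of them were lower in both LT-HSC libraries, as were 17.5% of all tested genes. Exo1, tested only through its ST-HSC values, is among the 4. Mre11a, the nuclease subunit that opens broken ends, was at 1.53 and 3.65 CPM in the LT-HSC libraries (20 and 59 reads), and 81.3 and 115 CPM in ST-HSC (1223 and 1701 reads). Both LT-HSC libraries were thus far below both ST-HSC libraries, with group means of 2.590 ± 1.4997 and 97.97 ± 23.58 CPM (SD, n = 2 each) and a log2 fold change of -4.83 ± 0.84 (SE, limma adjusted p = 0.718). With any library left out this value stayed between -5.27 and -4.39. Its partners in the same complex did not share a difference of this size. Rad50, the ATPase that tethers the ends, had 206 and 183 CPM in LT-HSC and 189 and 238 CPM in ST-HSC. The groups overlapped for Rad50, and the log2 fold change was -0.13 ± 0.25 (SE). Nbn, which recruits the kinase ATM, had 49.4 and 57.4 CPM in LT-HSC and 75.8 and 87.1 CPM in ST-HSC. Nbn was lower in both LT-HSC libraries, with a log2 fold change of -0.60 ± 0.39 (SE). Exons of Mre11a overlap those of Ankrd49 on the opposite strand in GENCODE, and Ankrd49 had 22.1 and 52.6 CPM in LT-HSC against 71.8 and 80.8 CPM in ST-HSC, so it was lower as well. No source used here says whether reads were assigned by strand, so reads in the exon bases that these genes share cannot be told apart. The share of such reads was not tested.

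Exo1, the exonuclease of long-range resection and mismatch repair, had 0.382 and 0.248 CPM in LT-HSC (5 and 4 reads), and 47.7 and 13.9 CPM in ST-HSC (718 and 207 reads). LT-HSC values of Exo1 lay near the floor of 3 reads, below both ST-HSC values. Exo1 was tested only through its ST-HSC values, so no fold change is given. Blm, the helicase that dissolves joined DNA molecules after strand exchange, had 14.0 and 6.13 CPM in LT-HSC and 16.3 and 69.7 CPM in ST-HSC. Its groups were separated only narrowly, since LT-HSC 1 and ST-HSC 1 were close. Without ST-HSC 2 the log2 fold change of Blm, -1.76 ± 1.05 (SE), was -0.75.

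**Figure D2:**
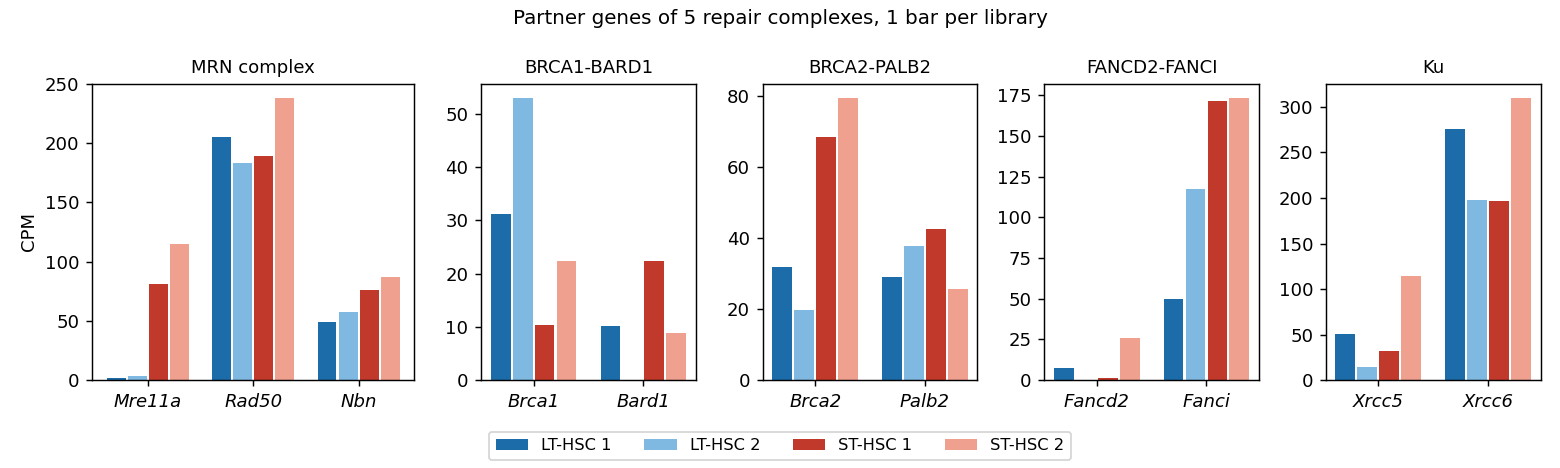
CPM (vertical axis, separate scale in each panel) of partner genes of 5 repair complexes, with 1 bar for each library. Mre11a was at 1.53 and 3.65 CPM in LT-HSC against 81.3 and 115 CPM in ST-HSC, while Rad50 overlapped between the groups, and Brca1 and Brca2 differed in opposite directions.

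Among the recombination genes, Brca1 and Brca2 stood on opposite sides. Brca2, a mediator of strand exchange, had 32.0 and 19.6 CPM in LT-HSC and 68.5 and 79.5 CPM in ST-HSC. Both LT-HSC values of Brca2 were below both ST-HSC values (25.8 ± 8.73 against 74.0 ± 7.71 CPM, SD, n = 2 each), with a log2 fold change of -1.52 ± 0.52 (SE, limma adjusted p = 0.749). Brca1, a ubiquitin ligase that favours resection, had 31.3 and 53.0 CPM in LT-HSC and 10.4 and 22.4 CPM in ST-HSC. Both LT-HSC values of Brca1 were above both ST-HSC values, with a log2 fold change of 1.35 ± 0.76 (SE, limma adjusted p = 0.831). Their partners showed neither pattern. Bard1, the partner of BRCA1, was at 10.2 CPM in LT-HSC 1 and 0 in LT-HSC 2, against 22.5 and 8.83 CPM in ST-HSC. Palb2, which links BRCA1 to BRCA2, had 28.9 and 37.6 CPM in LT-HSC and 42.5 and 25.6 CPM in ST-HSC. The groups overlapped for both partners, and the log2 fold change of Palb2 was near 0 and changed sign with the scaling.

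Further genes of strand exchange differed among themselves. Rad51ap1, which stimulates strand invasion, had 27.6 and 16.6 CPM in LT-HSC and 40.9 and 85.1 CPM in ST-HSC, with a log2 fold change of -1.42 ± 0.66 (SE). The motor protein genes Rad54l and Rad54b also did not overlap between the groups. Rad54l had 13.5 and 14.5 CPM in LT-HSC and 20.2 and 27.7 CPM in ST-HSC. Rad54b had 13.8 and 26.6 CPM in LT-HSC and 30.4 and 45.5 CPM in ST-HSC, so LT-HSC 2 lay closer to ST-HSC 1 than to LT-HSC 1. Xrcc2 and Xrcc3, which assist strand exchange, varied widely between libraries of a group. Xrcc2 had 25.8 and 9.97 CPM in LT-HSC, and 25.7 CPM and 0 in ST-HSC, and Xrcc3 had 253 reads in LT-HSC 1 but 0 in LT-HSC 2, and 3 and 34 reads in ST-HSC. Rad51c missed the filter, with 0 and 0.928 CPM in LT-HSC and 0.266 and 3.44 CPM in ST-HSC, so that only ST-HSC 2 passed 1 CPM.

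**Figure D3:**
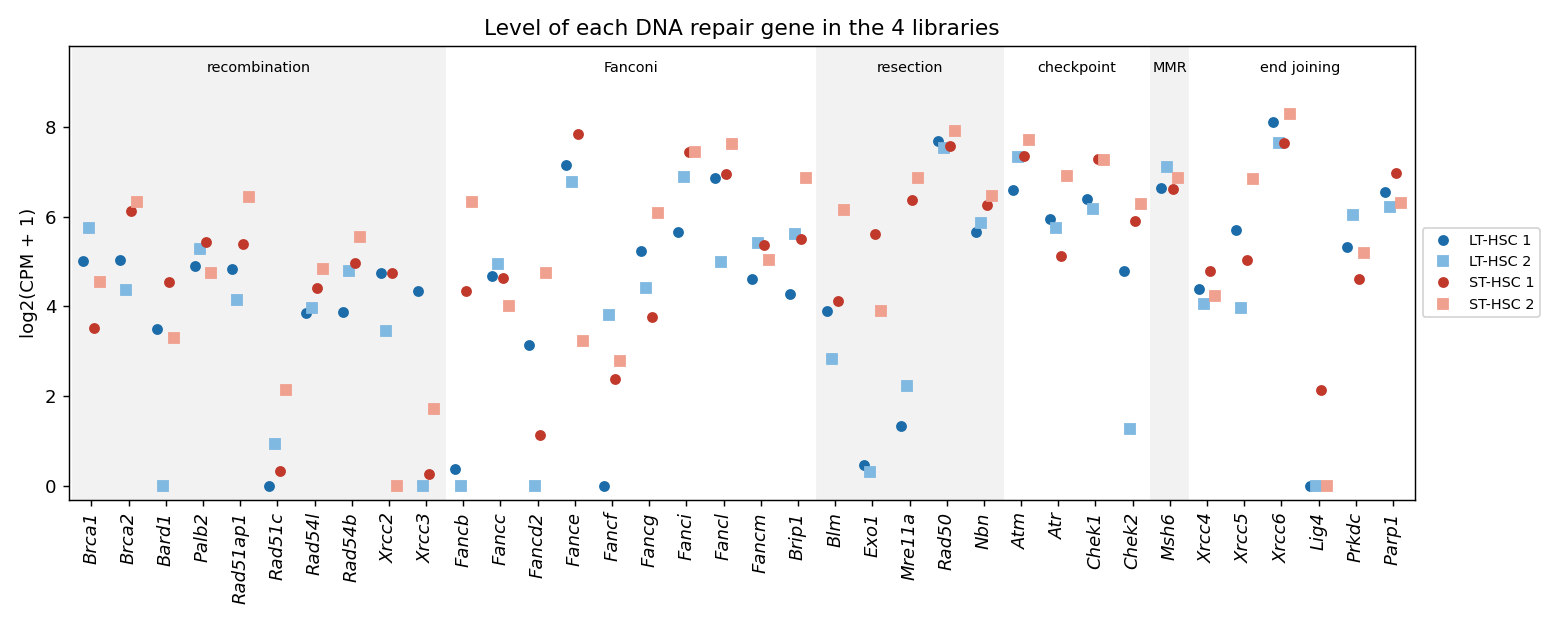
Level of the 36 repair genes as log2(CPM + 1) (vertical axis) in each library, ordered by role (MMR, mismatch repair). LT-HSC points of Fancb, Exo1 and Mre11a sit far below the ST-HSC points, while Rad50, Xrcc6 and Msh6 cluster closely over all 4 libraries.

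Of the 10 Fanconi genes, 3 were lower in both LT-HSC libraries, 1 was higher and 6 overlapped. Over all tested genes, 17.5% were lower in this way and 16.1% higher. Fancb, which belongs to the catalytic module of the core complex, had 4 and 0 reads in LT-HSC (0.306 CPM and 0) and 289 and 1178 reads in ST-HSC (19.2 and 79.4 CPM). Values of Fancb were thus near the floor in LT-HSC only, and they differed 4.13-fold between the ST-HSC libraries. Fancb was tested only through its ST-HSC values, so no fold change is given. Fancl, the ubiquitin ligase of the same module, had 114 and 30.7 CPM in LT-HSC and 123 and 195 CPM in ST-HSC. LT-HSC 1 and ST-HSC 1 were close for Fancl, and the log2 fold change of -1.36 ± 0.70 (SE) was -0.43 without LT-HSC 2. Fanci, a substrate of that ligase, had 49.6 and 118 CPM in LT-HSC and 171 and 173 CPM in ST-HSC, with a log2 fold change of -1.16 ± 0.48 (SE). Fancd2, the other substrate, was at 7.80 CPM and 0 in LT-HSC and 1.20 and 25.7 CPM in ST-HSC, with overlap. Fancc, of the core complex, was the gene that stood higher in LT-HSC, at 24.62 and 30.02 CPM against 24.00 and 15.03 CPM, a log2 fold change of 0.49 ± 0.72 (SE).

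The remaining Fanconi genes overlapped between the groups. Brip1, a helicase that binds BRCA1, had 18.3 and 47.6 CPM in LT-HSC and 44.5 and 115 CPM in ST-HSC. Fancm, the translocase that anchors the core complex, stayed between 23.6 and 41.3 CPM in all 4 libraries. Fance, which bridges the core complex to FANCD2, had 142 and 109 CPM in LT-HSC, and 229 and 8.36 CPM in ST-HSC. The ST-HSC libraries differed 27.4-fold in Fance, while the group means were 125 and 119 CPM, and its log2 fold change of 1.43 ± 1.51 (SE) turned to -0.88 without ST-HSC 2. Fancg ranged from 12.6 to 67.2 CPM with both extremes in ST-HSC. Fancf had 0 and 13.0 CPM in LT-HSC and 4.19 and 5.86 CPM in ST-HSC.

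The checkpoint kinase genes were lower in both LT-HSC libraries in 3 of 4 cases, against 17.5% of all tested genes. Chek1, the kinase that acts on stalled replication forks, had 83.2 and 70.7 CPM in LT-HSC and 154 and 152 CPM in ST-HSC. Replicates of Chek1 were close and the groups well apart (77.0 ± 8.85 against 153 ± 1.35 CPM, SD, n = 2 each), with a log2 fold change of -0.99 ± 0.30 (SE, limma adjusted p = 0.718) that stayed between -1.11 and -0.87 with any library left out. Chek2, the kinase downstream of ATM, had 26.5 and 1.42 CPM in LT-HSC and 58.8 and 77.0 CPM in ST-HSC. The LT-HSC libraries differed 18.6-fold in Chek2, and the log2 fold change of -3.06 ± 1.31 (SE) was -1.31 without LT-HSC 2 and -4.82 without LT-HSC 1. Atm, which senses breaks, had 95.5 and 160 CPM in LT-HSC and 163 and 209 CPM in ST-HSC, a narrow separation that ended with median-of-ratios or TMM scaling. Atr, which senses exposed DNA strands at forks, had 60.6 and 52.9 CPM in LT-HSC and 34.1 and 120 CPM in ST-HSC. Msh6, a mismatch recognition gene, had 98.5 and 138 CPM in LT-HSC and 96.5 and 114 CPM in ST-HSC, with overlap.

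**Figure D4:**
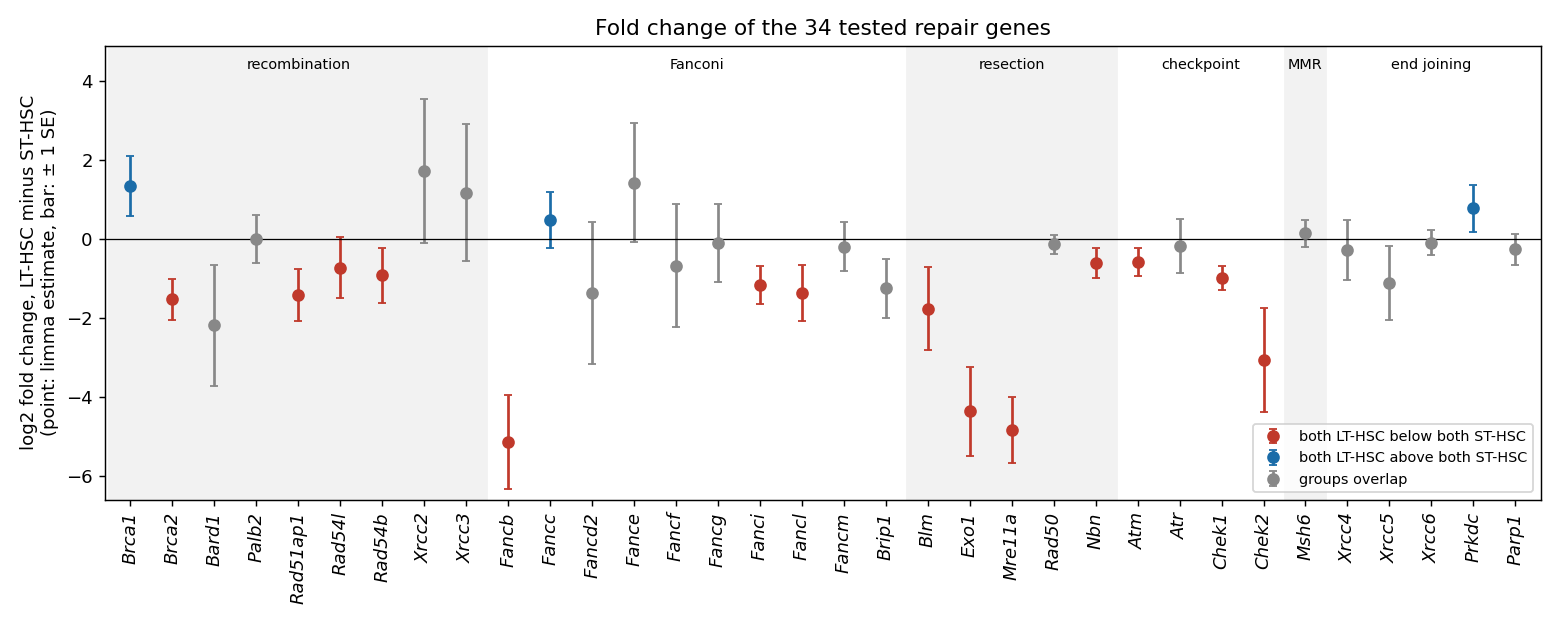
Log2 fold change, LT-HSC minus ST-HSC, of the 34 tested repair genes (points) with 1 SE (bars), coloured by whether the groups overlapped (MMR, mismatch repair). The resection and checkpoint genes all lay below 0, and the end joining genes lay between -1.10 and 0.78. Fancb and Exo1 were tested only through their ST-HSC values.

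Of the 5 tested end joining genes, 4 had a negative and 1 a positive log2 fold change, beside 19 and 5 of the 24 recombination, Fanconi and resection genes, so most of both lists had negative values. Xrcc6, which encodes Ku70, had 275 and 197 CPM in LT-HSC and 197 and 310 CPM in ST-HSC, so the groups overlapped fully and the log2 fold change was -0.08 ± 0.33 (SE). Xrcc5, which encodes its partner Ku80, had 51.2 and 14.7 CPM in LT-HSC and 31.8 and 114 CPM in ST-HSC, with a log2 fold change of -1.10 ± 0.93 (SE). In both genes ST-HSC 2 was the highest library. Prkdc, the kinase that Ku recruits, had 39.2 and 64.8 CPM in LT-HSC and 23.5 and 35.6 CPM in ST-HSC. It was the end joining gene in which both LT-HSC libraries were above both ST-HSC libraries, with a log2 fold change of 0.78 ± 0.59 (SE, limma adjusted p = 0.892). Xrcc4, the scaffold of the ligase, had 20.0 and 15.7 CPM in LT-HSC and 26.4 and 17.9 CPM in ST-HSC. Its ligase gene Lig4 missed the filter, being at 0 in 3 libraries and at 3.39 CPM (51 reads) in ST-HSC 1. Parp1, which detects breaks and acts in an alternative form of end joining, had 92.7 and 73.3 CPM in LT-HSC and 124 and 77.8 CPM in ST-HSC, with a log2 fold change of -0.25 ± 0.40 (SE).

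Levels of different genes can be compared only per length. Divided by the length of the longest coding transcript in GENCODE, the median over 25 recombination, Fanconi and resection genes was 4.76 CPM per kb in LT-HSC and 9.02 CPM per kb in ST-HSC. For the 6 end joining genes it was 12.2 and 20.2 CPM per kb. Xrcc6 had the highest level per length, with 71.7 CPM per kb in LT-HSC and 76.9 CPM per kb in ST-HSC, followed in LT-HSC by Fance at 61.9 and Rad50 at 37.7 CPM per kb. Of the 34 tested genes the lowest in LT-HSC were Exo1 at 0.0404, Fancb at 0.0513 and Mre11a at 0.458 CPM per kb, which reached 3.96, 16.5 and 17.3 CPM per kb in ST-HSC. These values rest on 2 libraries per group and carry the same spread as the CPM.

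Much of the spread lay between libraries of the same group. A gap of more than 2 on the log2(CPM + 1) scale, about 4-fold, separated the LT-HSC libraries in 5 of the 34 tested genes (Bard1, Xrcc3, Fancd2, Fancf and Chek2) and the ST-HSC libraries in 5 (Xrcc2, Fancd2, Fance, Fancg and Blm), where 17.96% and 13.55% of all tested genes had such a gap. Of 14 genes with a mean of at least 50 CPM, 1 had such a gap in either group, Fance, and of 20 genes below 50 CPM, 8 had it. The exons of 10 listed repair genes overlap those of another listed gene in GENCODE, among them Fanci with Polg and Fancl with Vrk2. Polg, at 54.6 and 52.0 CPM in LT-HSC and 21.5 and 8.02 CPM in ST-HSC, and Vrk2, at 32.1 and 39.4 CPM against 19.7 and 18.6 CPM, stood on the opposite side to their overlapping repair genes.

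Other genes of the same pathways, taken from fixed lists, were read in the same fit. Of 34 listed further recombination and Fanconi genes, 15 were lower in both LT-HSC libraries and 4 higher. Over all genes above the lowest value in any library these shares were 14.5% and 13.8%. The median over 31 tested was -0.64. None passed over all genes by limma, and at an unadjusted p under 0.05 there were 3 lower and 1 higher, against 3.59% and 2.92% of all tested genes. Rpa2, a subunit of the complex that coats exposed strands, had 55.4 and 55.2 CPM in LT-HSC and 183 and 212 CPM in ST-HSC. Slx4, a scaffold for nucleases, had 19.4 and 5.32 CPM in LT-HSC and 59.6 and 132 CPM in ST-HSC. Wdr48, a cofactor of the enzyme that removes ubiquitin from FANCD2, was the higher one, at 143 and 188 CPM in LT-HSC and 64.8 and 96.9 CPM in ST-HSC.

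Of 21 listed checkpoint and damaged chromatin genes, 11 were lower in both LT-HSC libraries and 1 higher, against 17.5% and 16.1% of all tested genes. Their median log2 fold change was -0.66. Atrip, the partner of ATR, had 72.3 and 64.1 CPM in LT-HSC and 147 and 127 CPM in ST-HSC. Clspn, the mediator between ATR and CHK1, had 23.4 and 25.2 CPM in LT-HSC and 91.4 and 51.2 CPM in ST-HSC. Timeless, of the fork protection complex, had 8.64 and 48.0 CPM in LT-HSC and 179 and 78.0 CPM in ST-HSC. Rif1, which restrains resection, and Paxip1, which binds damaged chromatin, had log2 fold changes of -0.88 ± 0.34 and -2.05 ± 0.74 (SE). These 5 genes had an unadjusted p under 0.05 and an adjusted p of 0.744 to 0.767 by limma. Of 12 further end joining genes, 1 was lower in both LT-HSC libraries and 2 were higher, where 17.5% and 16.1% of all tested genes did so. Their median log2 fold change was -0.05. Polm, a polymerase that fills gaps between joined ends, had 22.3 and 12.6 CPM in LT-HSC and 0.266 CPM and 0 in ST-HSC, where ST-HSC 1 held 4 reads. Polm was tested only through its LT-HSC values, so no fold change is given. Of 6 further mismatch repair genes, 0 were lower in both LT-HSC libraries and 1 was higher, against 17.5% and 16.1% of all tested genes. Pms2, an endonuclease subunit of that pathway, had a log2 fold change of -2.11 ± 1.32 (SE).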

How the data were processed

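RNA from sorted cells was made into cDNA with the SMARTer kit (labels' protocols). Reads were processed with TopHat against mm9, per the submitters' processing notes, with no counter, annotation or strand setting named in the sources used here. The authors deposited 1 value per gene on a log2 scale. Between 2 and 100 reads, 100% of values per library (2666 to 4217 values) lay within 0.1 of whole multiples of the lowest value, which was read as log2 CPM with unread genes raised to 1 read. Under this reading the reads fell short of the library total by 12 to 288, and by 13330 to 14836 if 1 read had been added to every gene. The latter is an alternative chosen after seeing the data. CPM were taken as deposited, with genes at the lowest value set to 0. A gene was tested if 2 or more libraries reached 1 CPM. Tests on log2(CPM + 1) used limma 3.58.1 (R 4.3.3, statmod 1.5.0; robust, with a trend), were 2-sided, and were adjusted by Benjamini-Hochberg over all 12608 genes, calling those under 0.05. Adding 1 CPM makes fold changes of low genes too small. The fit was tested on simulated reads with less spread than these libraries, which checks sign and size of fold changes but not power here. Alternatives were other scalings, added CPM and filters, limma-voom, the deposited values as they are, a replicate block and leaving out each library. Replicates differed beyond counting noise (chi-square over degrees of freedom 168 and 134). Repair genes and lists were chosen with earlier results of these data known. Every repair gene is accounted for; of the other lists, genes with an unadjusted p under 0.05 are named, or else the 2 with the smallest p, except that some genes are not reported here. Ankrd49, Polg and Vrk2 were chosen after their values were seen. Read counts cover counting error only, as amplified reads are not independent molecules.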

Additional observations from a re-analysis of the deposited data

How the results depend on the processing

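No tested setting brought a repair gene past the adjusted threshold. The median of the recombination, Fanconi and resection genes was -0.82 and became -1.01 and -1.06 with 0.5 and 0.1 CPM added, -0.66 with a mean log2(CPM + 1) of at least 3, -1.002 by limma-voom and -1.07 on the deposited values. It ranged from -1.05 to -0.55 with 1 library left out, so its sign was negative under each setting. The count of repair genes with both LT-HSC libraries above both ST-HSC libraries was 3 and ranged from 5 to 7 with 1 library left out, where fewer libraries make separation more frequent for all genes (29.4% to 37.3%). Of 498 values of single repair genes under the alternatives, 20 had the opposite sign, 16 of them with 1 library left out. Other filters, the replicate block and no robust shrinkage leave a fold change as it is, so these could not change a sign. Of the 34 genes, 21 never changed sign. Palb2 became 0.0186 by median-of-ratios scaling, 0.0196 by TMM and 0.0183 by limma-voom, and ranged from -0.36 to 0.35 with 1 library left out. Xrcc3 became -0.19 by limma-voom. With 1 library left out, the log2 fold change ranged from -1.06 to 0.72 for Atr, -3.17 to 0.43 for Fancd2, -0.88 to 3.74 for Fance, -2.58 to 1.23 for Fancf, -1.26 to 1.06 for Fancg, -0.58 to 0.20 for Fancm, -0.0921 to 0.39 for Msh6, -0.59 to 0.0826 for Parp1, -0.29 to 0.0368 for Rad50, -0.64 to 4.10 for Xrcc2 and -0.41 to 0.24 for Xrcc6. The cause of these changes was not tested.

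The groups share replicate numbers only as names. The LT-HSC 1 minus LT-HSC 2 differences correlated with ST-HSC 1 minus ST-HSC 2 at 0.0511 across genes. With the replicate block, 0 genes and 0 repair genes passed. At the unadjusted threshold 5 repair genes passed, 4 of them shared with the fit without it (Fanci in place of Brca2). The medians of -0.82 and -0.25 could not change, because the block leaves fold changes as they are in this balanced design. A library left alone in its group is assumed to vary like the other group. Reading 1 read as added to every gene gave medians of -0.82 and -0.25 and the same counts of 14 and 3. Fancb and Exo1 held 0 to 5 reads in each LT-HSC library, so no fold change is given for them. Their fitted values within the medians rest on few reads. Lig4 and Rad51c held up to 51 reads in 1 library and 0 to 15 in the others, and the cause was not tested.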
